A study of Mus musculus with 5 samples.

Results

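Genes that mark pancreatic carcinoma epithelium were measured in fibroblasts sorted from mouse pancreatic tumours by a gate that removed epithelial cells. The set held 35 genes chosen by name, and all 35 were among the 15180 protein-coding genes of the table. Tumours of the KPC mouse, which models pancreatic cancer, were allowed to form, and the mice were then gavaged for 14 days with vehicle or with LDE225 (sonidegib), which inhibits the Hedgehog signal transducer Smoothened. Sorted cells excluded DAPI, lacked CD45, EpCAM and E-cadherin on the surface, and carried podoplanin (PDPN). There were 3 libraries from vehicle-treated tumours and 2 from LDE225-treated tumours, and the labels give no age, sex or strain for the mice. The libraries were made from total RNA, and all 5 share the same tumour model and gate. Whether any 2 libraries share a mouse is not stated, so p-values measure the spread between these libraries, which may be technical.

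Carcinoma cells of the pancreatic duct are built as an epithelium. Keratin filaments run through the cell, cadherins, EpCAM and claudins join it to its neighbours, and mucins, trefoil peptides and other secreted proteins coat its free surface. The transcription factors GRHL2, OVOL1, ELF3, KLF5 and HNF4A and the splicing regulators ESRP1 and ESRP2 maintain this state, while ZEB, SNAIL and TWIST proteins repress it. Several of these genes are not private to carcinoma: the simple-epithelial keratins and ezrin are also made by mesothelial cells, and SOX9, KLF5, GATA6 and lipocalin-2 by some mesenchymal cells.

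The values are DESeq2-normalised read counts per gene, and each value was a whole multiple of what 1 read is worth in its library. The libraries held between 7578822 and 14083280.0 reads on the listed genes, with both LDE225 libraries deeper than every vehicle library. All 8 fibroblast markers were read in every library, with Col1a1, the main fibrillar collagen gene, between 200497 and 440668 normalised counts. Ptprc, which encodes CD45, had between 8.69 and 104 normalised counts. Scaled to exon length, the level of Ptprc was between 0.0508% and 0.407% of that of Pdgfra, a receptor gene of fibroblasts. Despite the gate, the transcripts of both epithelial sort proteins were present in every library. On the same scale Epcam stood at 10.5%, 3.48% and 11.9% of Pdgfra in vehicle 1, 2 and 3 and at 21.1% and 2.76% in LDE225 1 and 2. Cdh1, which encodes E-cadherin, stood at 11.5%, 12.4% and 15.0% with vehicle and at 10.3% and 3.22% with LDE225. These shares also depend on the level of Pdgfra, so they do not give the order of the libraries for either gene itself. The normalised count of Cdh1 in LDE225 1 was 701, inside the vehicle range of 530 to 739. Relative to Col1a1 per length, Epcam was at most 0.548%. In bulk RNA, fewer cells of a type and less RNA per cell cannot be told apart.

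Taken as a sum, the 35 genes had 18002, 15915 and 15513 normalised counts in vehicle 1, 2 and 3, and 12541 and 7434 in LDE225 1 and 2. Both LDE225 libraries lay below all vehicle libraries, and LDE225 2 was the lowest by a wide margin. As a share of the recovered reads the set took 0.186% (95% Wilson interval 0.183% to 0.189%), 0.147% (0.145% to 0.149%) and 0.143% (0.141% to 0.145%) in the vehicle libraries. The share was 0.114% (0.112% to 0.116%) in LDE225 1 and 0.0625% (0.0612% to 0.0638%) in LDE225 2. These intervals are for counting error only and leave out the spread between libraries. They are too narrow even for counting error where reads are PCR copies of the same molecule. The sum averaged 16476 ± 1336 (SD, n = 3) over the vehicle libraries. Over the LDE225 libraries it averaged 9988 ± 3611 (SD, n = 2), a ratio of 0.606. That ratio was 0.761 without LDE225 2 and 0.451 without LDE225 1.

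Across genes and per kilobase of exon, the mean level over the 5 libraries ranged from 2.67 normalised counts for Grhl2 to 745 for Krt8, with a median of 82.5. The 5 highest per kilobase were Krt8 (745), Krt18 (722), Krt19 (635), Ezr (619) and Tff1 (467). The lowest were the transcription factor genes Grhl2 (2.67) and Ovol1 (3.05) and the splicing gene Esrp1 (7.01). The highest library exceeded the lowest by 1.77-fold for Gata6 and by up to 33.8-fold for Tff2. Agr2 had 0 reads in vehicle 2, which allows up to 2.90 normalised counts (3 reads), and was the only member with a library at 0. All 35 had a mean of at least 10 normalised counts and entered the test, Ovol1 (10.6) and Agr2 (15.0) only just.

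**Figure D1:**
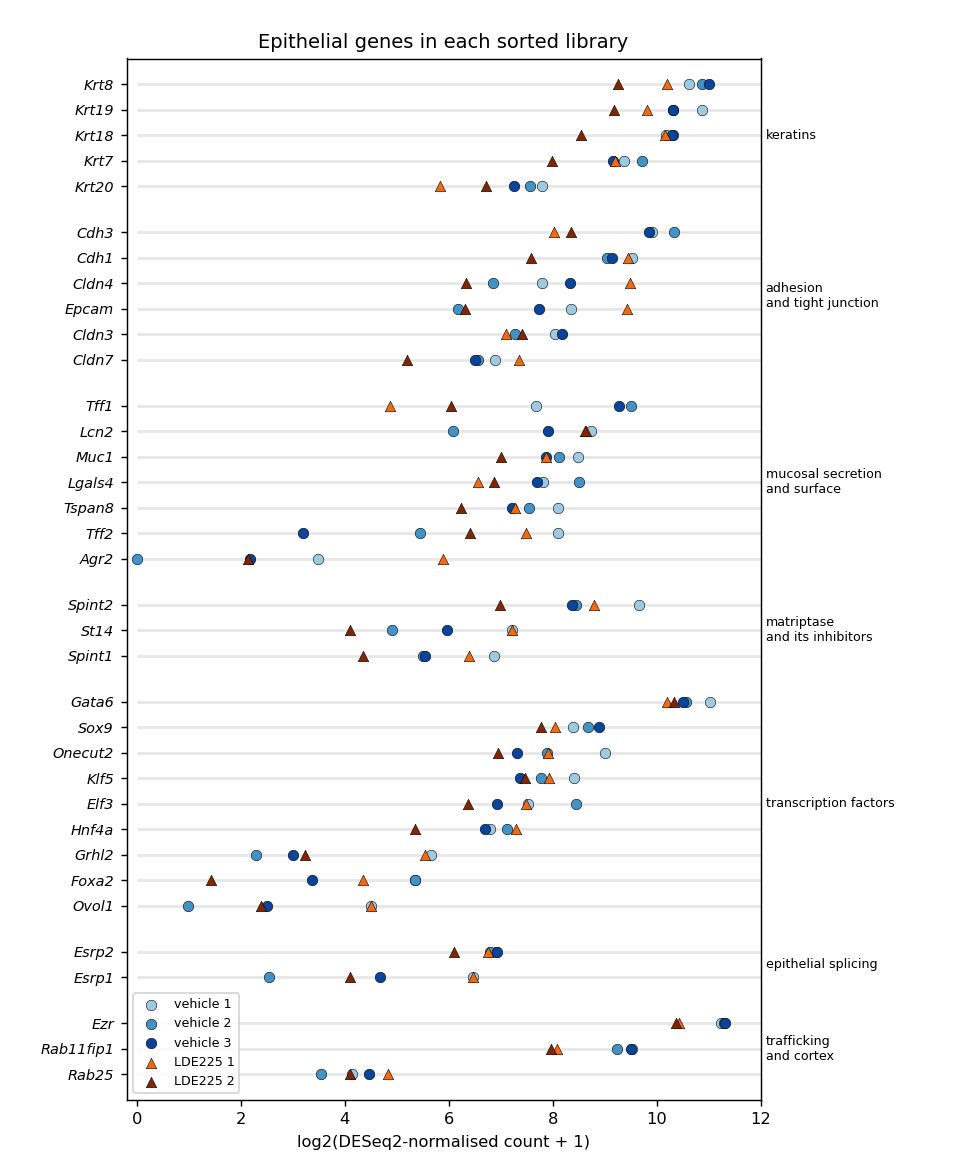
Level of each of the 35 epithelial genes in each library, as log2(DESeq2-normalised count + 1), grouped by role, with circles for vehicle 1 to 3 and triangles for LDE225 1 and 2. LDE225 2 is the lowest library for 20 genes (18.8% of all 13183 tested genes) and the highest for 0 (21.8% of all). Vehicle 1 is the highest for 16 (25.1% of all). LDE225 1 is the highest for 7 (15.7% of all), among them Epcam and Cldn4.

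Upstream sequence is shown for 5 genes that behave differently below: Epcam, Cldn4 and Spint2, whose levels differed several-fold between the LDE225 libraries, and Lgals4 and Krt20, which were lower than vehicle in both. Each is the 250 bases before the RefSeq gene start (table build GRCm38.p6), written 5′ to 3′ on the gene's own strand. Capitals mark the E-box letters CACCTG or CAGGTG, the 6-letter sequence that ZEB and SNAIL repressors are known to bind, searched on both strands (the 2 spellings are reverse complements of each other).
Epcam: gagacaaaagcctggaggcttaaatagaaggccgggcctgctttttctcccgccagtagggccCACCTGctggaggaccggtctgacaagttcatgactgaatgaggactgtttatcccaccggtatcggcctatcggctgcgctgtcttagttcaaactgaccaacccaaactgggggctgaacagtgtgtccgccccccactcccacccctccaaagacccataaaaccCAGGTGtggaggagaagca
Cldn4: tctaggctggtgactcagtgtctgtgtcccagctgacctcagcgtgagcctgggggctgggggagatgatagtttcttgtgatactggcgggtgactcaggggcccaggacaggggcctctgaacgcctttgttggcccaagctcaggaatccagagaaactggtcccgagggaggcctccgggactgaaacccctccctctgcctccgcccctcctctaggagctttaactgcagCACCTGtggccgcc
Spint2: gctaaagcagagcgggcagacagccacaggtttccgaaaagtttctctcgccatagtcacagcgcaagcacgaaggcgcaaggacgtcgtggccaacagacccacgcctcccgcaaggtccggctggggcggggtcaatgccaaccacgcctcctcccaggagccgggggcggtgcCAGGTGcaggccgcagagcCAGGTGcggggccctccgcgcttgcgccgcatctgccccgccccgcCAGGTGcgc
Lgals4: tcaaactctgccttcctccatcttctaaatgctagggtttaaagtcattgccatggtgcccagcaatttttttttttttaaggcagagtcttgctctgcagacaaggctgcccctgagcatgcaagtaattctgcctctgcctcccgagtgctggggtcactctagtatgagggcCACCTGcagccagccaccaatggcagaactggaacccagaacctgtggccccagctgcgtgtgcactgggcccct
Krt20: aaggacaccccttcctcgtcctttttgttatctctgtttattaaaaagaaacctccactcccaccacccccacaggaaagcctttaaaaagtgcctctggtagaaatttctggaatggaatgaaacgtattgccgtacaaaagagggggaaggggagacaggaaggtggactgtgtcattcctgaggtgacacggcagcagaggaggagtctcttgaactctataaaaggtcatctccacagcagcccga
The windows lie at chr17:87635729-87635978 (plus strand) for Epcam, chr5:134946935-134947184 (minus) for Cldn4, chr7:29281978-29282227 (minus) for Spint2, chr7:28833544-28833793 (plus) for Lgals4 and chr11:99438154-99438403 (minus) for Krt20. Epcam held 2 matches, 181 and 13 bases before its start, Spint2 held 3, and Cldn4 and Lgals4 held 1 each. Krt20 held 0, which says only that these letters are not in this window. Of the 35 genes 20 were matched in the table, with 24 starts, and 12 of the 24 windows held a match, against 17.2% of the 32851 windows of all genes. The 5 genes were picked for their levels, and a link between matches and levels was not tested. Other members had and lacked matches in both kinds. Elf3 held 1 and Spint1 and Tspan8 held 0 among genes at least 2 times as high in LDE225 1 as in LDE225 2. Krt8 held 1 and Ezr held 0 among genes lower than vehicle in both LDE225 libraries. A match is a description of letters and not a bound site.

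LDE225 was compared with vehicle by limma on log2(value + 1) over all 13183 genes with a mean of at least 10, with Benjamini-Hochberg adjustment over all of them and a threshold of 0.05. None of the 35 genes passed in either direction. Over all genes 0.0228% passed higher and 0.00759% lower. At an unadjusted p under 0.05 there were 9 members lower and 0 higher, where 5.71% of all genes were lower and 6.92% higher. The LDE225 libraries were both below the vehicle range for 12 of 35 members, against 15.2% of all genes, and both above it for 0, against 16.6%. The log2 fold change was negative for 26 members and positive for 9, with a median of -0.64, where the median over all genes was 0.0030. On the recovered reads edgeR's quasi-likelihood test called 0 members, where it called 0.0152% of all genes higher and 0% lower. At an unadjusted p under 0.05 edgeR had 9 members lower and 0 higher, where 5.68% of all genes were lower and 6.95% higher. DESeq2 called 8 lower and 0 higher, where it called 1.74% of all genes lower and 2.28% higher. The 8 were Cdh3, Rab11fip1, Ezr, Tff1, Lgals4, Krt19, Krt8 and Krt20.

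**Figure D2:**
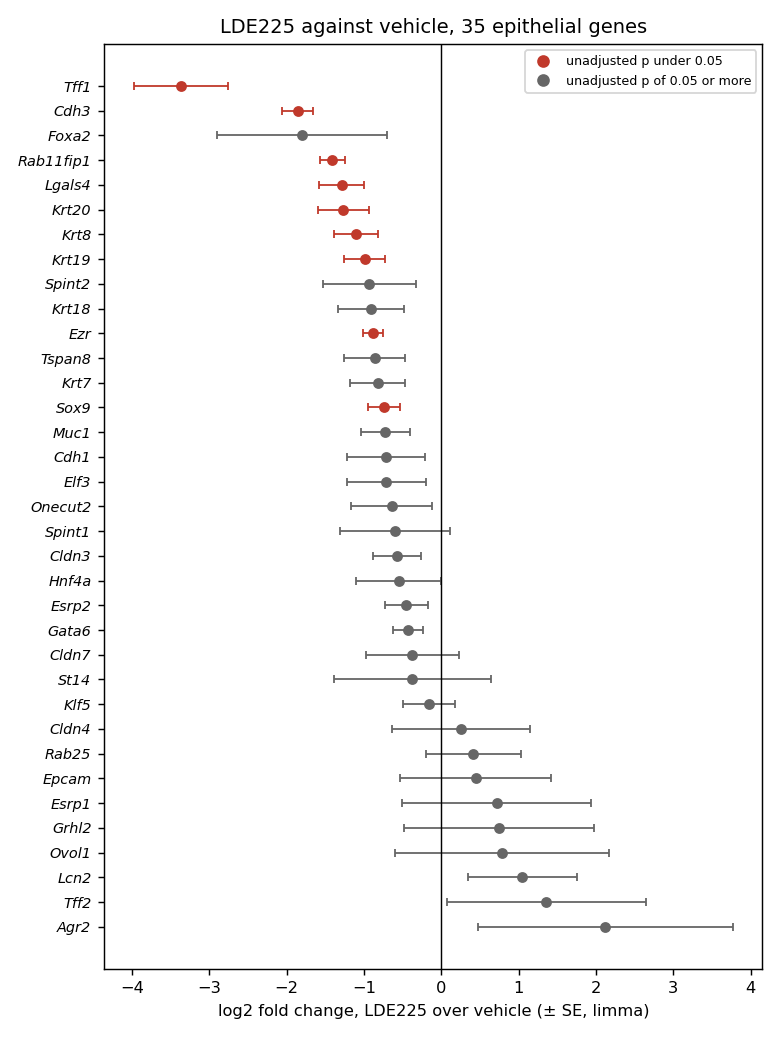
Log2 fold change of LDE225 over vehicle with its SE from limma for the 35 genes, sorted from the most negative. The 9 genes in red had an unadjusted p under 0.05, all of them negative, and none passed after adjustment over all 13183 genes. Of all genes 5.71% were lower and 6.92% higher at that unadjusted p.

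The 5 keratin genes encode the intermediate filaments of simple epithelium, in which a type II keratin (Krt7 or Krt8) pairs with a type I keratin (Krt18, Krt19 or Krt20). Summed, they had 5477, 5435 and 5297 normalised counts in the vehicle libraries, which varied by little (SD 94.5 on a mean of 5403), and 3864 and 1919 in LDE225 1 and 2. All 5 had negative log2 fold changes, 3 of them with an unadjusted p under 0.05 (5.71% of all genes were lower at that p), and 4 had groups that did not overlap (15.2% of all genes were lower in this way). Krt8 had 1576, 1868 and 2054 normalised counts with vehicle and 1181 and 609 with LDE225. Its log2 fold change was -1.10 ± 0.29 (SE, limma adjusted p = 0.213). Krt19 had 1867, 1267 and 1268 with vehicle and 904 and 582 with LDE225, so that both LDE225 libraries were below the vehicle range (log2 fold change -0.99 ± 0.26, limma adjusted p = 0.213). Krt20, a keratin of gastric and intestinal lining, had 220.5, 189 and 153 with vehicle and 56.2 and 104 with LDE225 (-1.27 ± 0.33, limma adjusted p = 0.210). Krt20 differed from the other keratins in that LDE225 1, not LDE225 2, was its lowest library.

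Krt18 had 1156, 1269.8 and 1249.6 normalised counts with vehicle and 1138 and 371 with LDE225. LDE225 1 thus lay just under the vehicle range and LDE225 2 far below it, and the log2 fold change of -0.91 ± 0.43 (limma adjusted p = 0.445) was -0.10 without LDE225 2. Krt7 had 658, 841 and 572 with vehicle and 585 and 253 with LDE225, so that LDE225 1 lay inside the vehicle range and LDE225 2 below it. Per kilobase, the level of Krt8 was 100.1%, 108% and 121% of that of its partner Krt18 in the vehicle libraries, 76.1% in LDE225 1 and 121% in LDE225 2. Krt8 has 1 processed copy in GENCODE by name, and reads that fit both could have been divided between them.

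The adhesion genes split. Cdh3 encodes P-cadherin, a classical cadherin of basal and placental epithelium that many carcinomas express. It had 965, 1288 and 929 normalised counts with vehicle and 258 and 324 with LDE225. The groups stood well apart, with a 3.65-fold lower mean with LDE225. Its log2 fold change of -1.86 ± 0.20 had the smallest limma p of the set (adjusted p = 0.0731) and ranged from -2.02 to -1.69 over the fits without a library. Cdh3 passed with the same total in each library, with array weights and in DESeq2 (adjusted p = 1.92e-10). It also passed with the replicate block, which pairs libraries by title number, a pairing that the labels do not state. The log2 fold change there was -1.94, the same as without vehicle 3.

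Cdh1, the neighbour of Cdh3 on chromosome 8, did not follow it. Cdh1 had 739, 530 and 561 normalised counts with vehicle and 701 and 191 with LDE225 (log2 fold change -0.72 ± 0.50, limma adjusted p = 0.621). LDE225 1 was within the vehicle range and LDE225 2 below it, and the log2 fold change was 0.22 without LDE225 2. Per kilobase, Cdh1 was at 0.734, 0.394 and 0.579 times the level of Cdh3 with vehicle, at 2.61 times in LDE225 1 and at 0.566 times in LDE225 2.

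Epcam, the other protein of the epithelial gate and a homophilic adhesion molecule, had 325, 71.5 and 213 normalised counts with vehicle and 687 and 78.6 with LDE225. LDE225 1 was above every other library, and LDE225 2 was close to the lowest, vehicle 2. The log2 fold change of 0.45 ± 0.98 (limma adjusted p = 0.893) was -1.11 without LDE225 1 and 2.00 without LDE225 2. Cldn4, a tight junction claudin, was also highest in LDE225 1 but lowest in LDE225 2, with 220.5, 115 and 323 with vehicle, 720 in LDE225 1 and 79.5 in LDE225 2. Cldn7 had its highest value in LDE225 1 (163) and its lowest in LDE225 2 (35.5), on either side of the vehicle libraries (117, 93.7 and 89.7). Cldn3 departed from its relatives: it had 261, 154 and 290.0 with vehicle and 136 and 170 with LDE225, with no peak in LDE225 1.

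The secreted and surface genes also split. Tff1 encodes a trefoil peptide of gastric surface mucus, which is switched on in early pancreatic neoplasia. Tff1 had 205, 729 and 615 normalised counts with vehicle and 28.1 and 65.1 with LDE225. Both LDE225 libraries lay below the lowest vehicle library, vehicle 1, and the group mean was 11.1-fold lower. The log2 fold change of -3.37 ± 0.60 was the most negative of the set (limma adjusted p = 0.137) and ranged from -3.96 to -2.78 over the fits without a library. Tff1 passed with array weights (limma adjusted p = 0.0407) and in DESeq2 (adjusted p = 7.26e-07). It also passed with the unstated pairing of the replicate block (limma adjusted p = 0.0475). Tff2, the trefoil peptide of mucous neck cells and a neighbour of Tff1 on chromosome 17, went another way. It had 275, 42.5 and 8.15 with vehicle and 178 and 83.7 with LDE225, so that the vehicle libraries spanned both LDE225 libraries (log2 fold change 1.36 ± 1.29, limma adjusted p = 0.719).

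Lgals4, which encodes galectin-4, a lectin of gut epithelium, had 224, 360.2 and 206 normalised counts with vehicle and 93.2 and 117 with LDE225. Its groups did not overlap (log2 fold change -1.28 ± 0.29, limma adjusted p = 0.183). Muc1, the cell-surface mucin, ranged from 232 to 358 with vehicle and was at 232 and 127 with LDE225, and the tetraspanin gene Tspan8 from 147 to 274 and at 154 and 74.4. For each of them LDE225 1 lay at or near the lower end of the vehicle range and LDE225 2 below it. Lcn2, which encodes the iron-siderophore binder lipocalin-2, had 427, 66.6 and 240 with vehicle and 396 and 393 with LDE225. The vehicle libraries differed from each other by more than the groups did (log2 fold change 1.05 ± 0.70, limma adjusted p = 0.603). Agr2, a disulfide isomerase gene of mucus-secreting cells, had 57.8 in LDE225 1 and between 0 and 10.2 in the other libraries.

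St14 encodes matriptase, a membrane serine protease of epithelia, and Spint1 and Spint2 encode its Kunitz-type inhibitors. All 3 were lowest in LDE225 2, and in all 3 vehicle 1 and LDE225 1 were above the other libraries, at the same level for St14. St14 had 148, 28.97 and 61.7 normalised counts with vehicle and 148 and 16.1 with LDE225. Spint1 had 116, 44.4 and 45.4 with vehicle and 82.7 and 19.4 with LDE225. Spint2 had 805, 349 and 328 with vehicle and 445 and 125 with LDE225. For protease and inhibitors alike, LDE225 1 lay in the vehicle range and LDE225 2 below it, and the limma adjusted p-values lay between 0.585 and 0.921.

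Among the 9 transcription factor genes, Sox9, a factor of duct and progenitor cells, had 333, 408 and 474 normalised counts with vehicle and 262 and 218 with LDE225. Its groups did not overlap (log2 fold change -0.74 ± 0.21, limma adjusted p = 0.231). Gata6, a factor of the classical carcinoma subtype, was also lower in both LDE225 libraries, with 2073, 1508 and 1453 against 1172 and 1292, and was the most evenly read of the set (log2 fold change -0.43 ± 0.19, limma adjusted p = 0.431). Gata6 was among the 3 members of highest mean, with Ezr and Krt8.

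Grhl2 and Ovol1, which encode factors that hold cells in the epithelial state, were read at low levels and followed another order. Grhl2 had 49.7, 3.86 and 6.99 normalised counts with vehicle and 45.8 and 8.45 with LDE225, from 39, 4, 6, 57 and 10 reads. Ovol1 had 21.7, 0.966 and 4.66 with vehicle and 21.7 and 4.23 with LDE225. In both genes vehicle 1 and LDE225 1 stood together, well above the other 3 libraries. Elf3, an epithelial ETS factor, was highest in vehicle 2 (349) and between 81.1 and 182 elsewhere. Hnf4a, the factor of gut and liver identity, had 110, 138 and 102 with vehicle, 155 in LDE225 1 and 39.7 in LDE225 2. Klf5 (165 to 340.3 with vehicle, 243 and 175 with LDE225), Onecut2 (157 to 511, and 239 and 122) and Foxa2 (9.32 to 39.6, and 19.3 and 1.69) overlapped between the groups or had 1 LDE225 library in the vehicle range.

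Esrp1 and Esrp2 are RNA-binding proteins that set epithelial splice forms. In Esrp1, as in Grhl2 and Ovol1, vehicle 1 and LDE225 1 stood above the other libraries. Esrp1 had 87.9, 4.83 and 24.5 normalised counts with vehicle and 87.6 and 16.1 with LDE225. Esrp2 was far steadier, with 119, 110 and 121 with vehicle and 107 and 67.6 with LDE225. Per kilobase, Esrp1 was at 0.511 times the level of Esrp2 in vehicle 1 and 0.564 times in LDE225 1, and at between 0.0302 and 0.163 times in the other 3 libraries. Exons of Esrp2 overlap Nfatc3 on the opposite strand. Since the strand setting of the counting is not given, reads in the shared stretch may come from either gene.

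The trafficking and cortex genes included the steadiest differences. Ezr encodes ezrin, which ties the cell cortex to actin in microvilli. It had 2430.2, 2511 and 2540.0 normalised counts with vehicle and 1371 and 1324 with LDE225. Each group was tight and the groups were far apart (log2 fold change -0.89 ± 0.13, limma adjusted p = 0.0958). Rab11fip1, which encodes an adaptor of the recycling endosome, had 740.4, 605 and 723 with vehicle and 268 and 248 with LDE225. Here too the LDE225 libraries were alike and below all vehicle libraries (log2 fold change -1.41 ± 0.16, limma adjusted p = 0.0731). Over the fits without a library the log2 fold change ranged from -0.91 to -0.86 for Ezr and from -1.50 to -1.35 for Rab11fip1. Both passed with array weights (limma adjusted p = 0.0407 for Ezr and 0.0356 for Rab11fip1) and in DESeq2 (adjusted p = 2.45e-07 and 2.29e-08). Rab25, the epithelial RAB11 family member, was low throughout (10.6 to 27.3) with overlapping groups. Exons of Ezr overlap Sytl3, and those of Rab11fip1 a non-coding gene, on the opposite strand, as do exons of 13 of the 35 genes in all with some gene.

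The members therefore did not move as 1 block. LDE225 1 was above LDE225 2 for 29 of 35 members, where this held for 47.1% of all genes, and at least 2 times as high for 18, where this held for 4.48% of all genes. LDE225 2 was at least 2 times as high for Tff1 alone, where this held for 3.76% of all genes. Vehicle 1 and LDE225 1 were both above the other 3 libraries for 14 members, where this held for 11.8% of all genes. These orders were chosen after the values were seen, and the genes of the set share libraries, so that the counts are a description. Ratios of LDE225 1 to LDE225 2 were high for Agr2 (17.1, from 72 and 4 reads), St14 (9.20), Cldn4 (9.06) and Epcam (8.74). Agr2, 1 of the 18, met the mean of 10 only through LDE225 1, so its ratio is not independent of the filter. Foxa2 had 24 and 2 reads there, too few in LDE225 2 for a ratio. The ratio was near 1 for Ezr (1.04), Rab11fip1 (1.08) and Lcn2 (1.01).

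**Figure D3:**
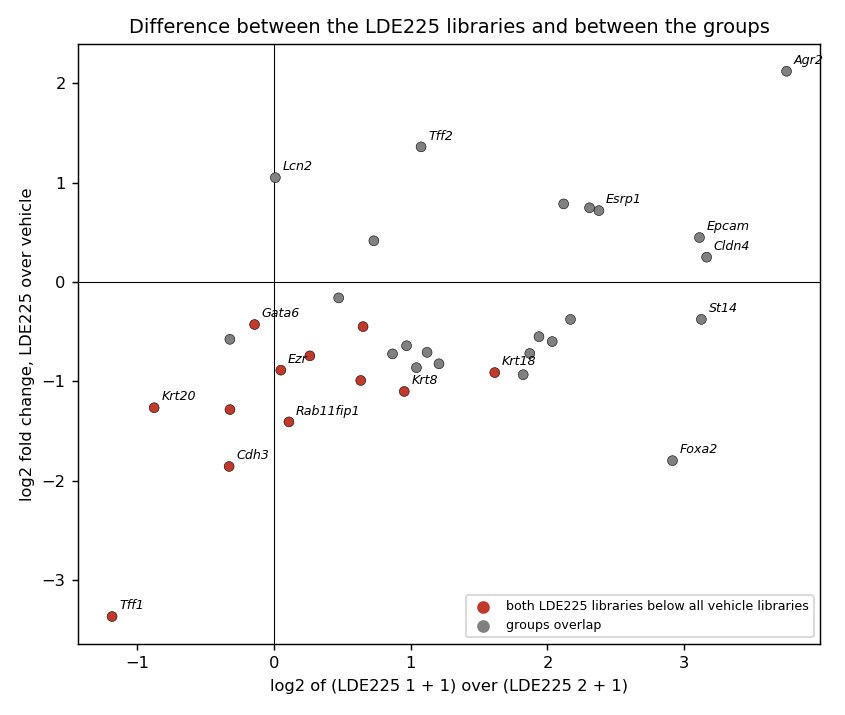
For each of the 35 genes, the log2 ratio of LDE225 1 to LDE225 2 (values + 1, horizontal) against the log2 fold change of LDE225 over vehicle (vertical), in red where both LDE225 libraries lay below all vehicle libraries. The 12 red genes stand beside 15.2% of all genes with both LDE225 libraries below vehicle. Among the red genes Cdh3, Tff1, Ezr and Rab11fip1 lie near or left of 0 and Krt18 farthest right. The grey Epcam, Cldn4, St14 and Agr2 lie farther right still.

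The counts depended on the LDE225 libraries. Without LDE225 1 there were 31 negative log2 fold changes among the 35, a median of -1.16 and 17 members lower at an unadjusted p under 0.05, where 3.23% of all genes were. Without LDE225 2 there were 20 negative, a median of -0.12, 7 lower, where 3.00% of all genes were, and 1 higher, where 2.59% were. In both of these fits the remaining LDE225 library is assumed to vary like the vehicle libraries. Leaving out vehicle 1 gave a median of -0.52, with 9 members lower at that p, where 8.6% of all genes were, and 2 higher, where 9.28% were. Leaving out vehicle 2 gave -0.73, with 10 lower (4.38% of all genes) and 0 higher (5.89% of all genes). Leaving out vehicle 3 gave -0.77, with 11 lower (4.99% of all genes) and 0 higher (6.55% of all genes).

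Other genes of the epithelial programme gave a mixed picture, and none passed over all genes in limma. The counts of these lists stand beside 5.71% of all genes lower and 6.92% higher at an unadjusted p under 0.05, and 15.2% with both LDE225 libraries below vehicle. Of 18 further junction and polarity genes, 16 had negative log2 fold changes (median -0.61, and -0.34 and -0.037 without vehicle 1 and LDE225 2), 6 had both LDE225 libraries below vehicle and 0 had an unadjusted p under 0.05. The junction adhesion gene F11r had the highest mean of them, at 1106, 755 and 707 normalised counts with vehicle and 564 and 615 with LDE225. Of 15 tested genes of desmosomes and hemidesmosomes, 10 were negative (median -0.29, and -0.10, -0.63 and 0.012 without vehicle 1, LDE225 1 and LDE225 2) and 4 lower at an unadjusted p under 0.05. Jup, which encodes plakoglobin, had 1279, 1126 and 1083 with vehicle and 782 and 781 with LDE225 (log2 fold change -0.57 ± 0.14, limma adjusted p = 0.202). Of 8 tested further epithelial transcription factors, 2 were negative (median 0.24, and -0.067, -0.075 and -0.45 without vehicle 2, vehicle 3 and LDE225 1) and 0 had an unadjusted p under 0.05 in either direction.

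The gastric and mucin genes held 8 negative log2 fold changes among 14 tested (median -0.88, and -0.31 and -0.47 without vehicle 1 and LDE225 2), with 3 lower at an unadjusted p under 0.05. All 16 genes of this list summed to 13139, 2877 and 1739 normalised counts with vehicle and 3774 and 2449 with LDE225. Over all libraries Dmbt1 held 71.8% of that sum. The gastric protease gene Ctse had 684, 568 and 389 normalised counts with vehicle and 439 and 178 with LDE225. Gkn3, a gastrokine gene, was at 657 in LDE225 1 and between 3.86 and 187 in the other libraries. Muc5ac, the gastric surface mucin gene, had 20.4, 297 and 375.0 with vehicle and 150.2 and 4.23 with LDE225, an order unlike that of Tff1 in LDE225 1. Of 19 tested duct and other carcinoma surface genes, 11 were negative (median -0.18, and 0.035 and 0.14 without vehicle 1 and LDE225 2) and 1 was lower at an unadjusted p under 0.05. The 22 genes of this list summed to 19990, 53073 and 14800 normalised counts with vehicle and 16152 and 9450 with LDE225. Spp1 held 68.5% of that sum over all libraries. The 8 genes that encode repressors of the programme had 5 positive and 3 negative values (median 0.22). At an unadjusted p under 0.05, 2 were higher and 0 lower, where 6.92% of all genes were higher. Both LDE225 libraries lay above vehicle for 3 of the 8, where this held for 16.6% of all genes. Prrx1 held 33.4% of the sum of this list over all libraries. Zeb1 had 612, 912 and 767 with vehicle and 1024 and 1293 with LDE225 (log2 fold change 0.61 ± 0.21, limma adjusted p = 0.309).

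Markers of other cell types, within the gate or carried through it, moved with some of these values, and their part in the results was not tested. All 9 mesothelial markers were read in every library, and all 9 had negative log2 fold changes (median -0.89, and -0.31 without vehicle 1), 3 of them with an unadjusted p under 0.05 (5.71% of all genes). Their sum was between 4783 and 13690.4 with vehicle, vehicle 1 being the highest, and 4810 and 4409 with LDE225. Msln, which encodes mesothelin and is also made by pancreatic carcinoma cells, had 2202, 985 and 1069 normalised counts with vehicle and 602 and 511 with LDE225. All 12 proliferation genes were lower in both LDE225 libraries at an unadjusted p under 0.05 (5.71% of all genes were lower at that p and 15.2% lower in both libraries), with a median of -1.39 and a sum of 3327 to 3973 with vehicle and 1336 and 1508 with LDE225. Mki67 had 1367, 1436 and 1165 with vehicle and 456 and 537 with LDE225, an even level in the LDE225 libraries.

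The islet hormone genes were nearly absent except in LDE225 1. Ins1 had 111 normalised counts there and 0 in the other 4 libraries, and Ins2 had 110.1 there, 2.54 in LDE225 2 and 0 with vehicle. The sum of 5 islet markers was 263 in LDE225 1 and between 0 and 10.2 in the others, so that the library with the highest Epcam and Cldn4 was also the one with islet transcripts. The acinar markers took another order: 7 genes were tested, their sum was 1278, 165 and 516 with vehicle and 190.4 and 1189 with LDE225, and the median log2 fold change was -0.44 (0.59 without vehicle 1 and 0.98 without LDE225 1). The sum of 6 leukocyte markers was between 218 and 855 with vehicle, vehicle 1 being the highest, and 410 and 696 with LDE225, with 0 of the 6 at 0 in any library. Over all libraries Lyz2 held 75.2% of that sum. Sums of the lymphatic endothelial markers were between 279 and 1596 with vehicle and 746 and 1008 with LDE225, and sums of the blood endothelial markers between 429 and 1449 and at 680 and 917. Of the 8 fibroblast markers all had positive log2 fold changes (median 0.43), with sums of 625794 in vehicle 1 and between 1083920.0 and 1217310.0 in the other 4 libraries.

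**Figure D4:**
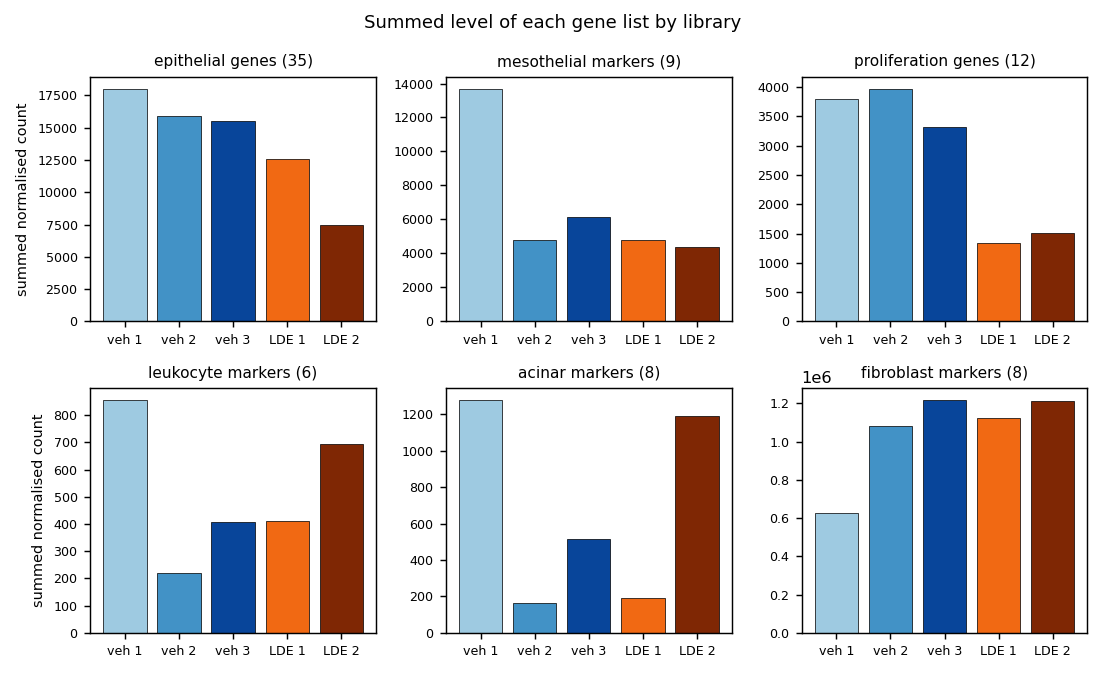
Summed DESeq2-normalised counts of 6 gene lists in each library, as bars from 0, with the number of genes in brackets. The epithelial genes are lower in both LDE225 libraries and lowest in LDE225 2, the proliferation genes are low alike in both, vehicle 1 is the highest for mesothelial and leukocyte markers and the lowest for fibroblast markers, and acinar markers are high in vehicle 1 and LDE225 2.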

How the data were processed

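The authors deposited 1 signal per gene and library, a read count on a linear scale divided by a DESeq2 size factor, with gene length left in. Per the submitters' processing notes the tools were DESeq2 1.22.2, RSEM 1.2.29 and STAR 2.7.3, on GRCm38. Nothing used here states the gene filter or strand setting. A further 3 columns without a name held entries for 9 genes and were not used.

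Libraries were matched by their description and grouped by title into vehicle (n = 3) and LDE225 (n = 2). Dividing each column by its smallest positive value gave whole reads within 0.001 reads for 100% of values. Exon lengths and positions came from GENCODE M21 (GRCm38), matched on the versioned identifier for 14755 genes and for all 35 members. Of the symbols, 23 that a spreadsheet had turned into dates were restored from identifiers.

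Groups were compared on log2(value + 1), a scale that understates fold changes of low genes, with limma 3.58.1 (R 4.3.3; moderated variances with a mean trend, two-sided). Added after seeing the data were DESeq2 1.42.0 and edgeR 4.0.16, run on whole reads. All 3 were also run on simulated counts with independent libraries and a spread set by the mean alone. That does not check their calls on these libraries. Alternatives were the pseudocount, the filter, rescaling, variance settings, a replicate block and leaving out each library. The block took equal title numbers as pairs, so that vehicle 3 had no partner and did not bear on the log2 fold change. The members and lists were chosen with earlier results of these data known. Named are all members, with per-library values for Epcam, Cdh1, those with an unadjusted p under 0.05 and the 3 of highest mean, and up to 4 genes of highest mean per other list. Further per-library values, and Pdgfra, were chosen after their values were seen.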

Additional observations from a re-analysis of the deposited data

How the results depend on the processing

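The count of members called (0 higher, 0 lower) became 1 lower with the same total in each library, 4 lower with array weights, 2 lower with the replicate block and 8 lower in DESeq2, and stayed at 0 lower in all fits that left out 1 library. Over all genes the counts of 3 higher and 1 lower became 2 lower with the same total, 0 lower without trend, 70 higher and 38 lower with array weights, 16 higher and 5 lower with the replicate block, 0 lower in edgeR, and 300 higher and 230 lower in DESeq2. Leaving out 1 library gave 0 to 6 higher and 0 to 4 lower. The members' median of -0.64 lay between -1.16 and -0.12 with 1 library left out, and the ratio of summed levels (0.606) between 0.451 and 0.761. The same total moved the median of all genes to -0.13, so that the members' median of -0.77 there is -0.64 relative to it. Of the 35 log2 fold changes, 24 kept their sign in every alternative that tested them, out of 18. The filter at a mean of 50 left 6 members untested, among them Agr2, Rab25 and Foxa2 of these 24. Outside the fits without a library, Klf5 turned to 0.067 with array weights, and St14 to 0.055 in edgeR and 0.043 in DESeq2.

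Over the fits without a library, log2 fold changes ranged from -1.33 to 1.83 for Cldn4, -1.11 to 2.00 for Epcam, -1.65 to 0.22 for Cdh1, -1.46 to 0.71 for Cldn7, -0.40 to 0.12 for Klf5, -1.52 to 0.42 for Hnf4a, -1.62 to 0.42 for Spint1, -1.94 to 1.19 for St14, -0.47 to 1.91 for Esrp1, -0.27 to 1.84 for Ovol1 and -0.41 to 1.90 for Grhl2. The cause of these changes was not tested. The replicate numbers of the titles are not said to mark shared mice or days: deviations from the group means correlated at 0.132 for vehicle 1 with LDE225 1 and at -0.0174 for vehicle 2 with LDE225 2, across 13183 genes. The largest correlation was 0.193, between libraries of different number, vehicle 3 and LDE225 2. With 2 LDE225 libraries the deviations mirror each other, so each value fixes that of the other LDE225 library with its sign turned. Counts of a few reads limit Grhl2, Ovol1, Agr2, Esrp1 and Foxa2.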
